A study of Mus musculus with 8 samples.

Results

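The genes described here are 10 inducible inhibitors of extracellular signal-regulated kinase (ERK) and related MAP kinase signaling, namely Dusp1, Dusp4, Dusp5, Dusp6, Dusp10, Spry1, Spry2, Spry4, Spred1 and Spred2. They were taken by gene symbol from a named list of MAP kinase phosphatase, Sprouty and Spred genes, and all 10 were among the 18770 genes of the expression table. Messenger RNA was measured by RNA-seq in the dermis of mouse dorsal skin, with the hair follicles left in place and the epidermis between them taken off. Skin was collected at D4, the fourth day after the hair had been removed by depilation, which starts a new hair cycle. All mice were wildtype C57BL/6 males (C57BL/6J in the paper) aged 7 to 8 weeks. The VC group (n = 4) received the vehicle, 65% ethanol, on the skin, and the AP group (n = 4) received alpinetin, a plant flavonoid, in the same vehicle. The comparison asks which transcripts differed between alpinetin-treated and vehicle-treated skin at this time.

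ERK is switched on by phosphorylation downstream of growth factor receptors, Ras, Raf and MEK, and one of its effects is to induce genes whose products turn the same pathway down. The dual-specificity phosphatases of the Dusp family remove the activating phosphates from MAP kinases, whereas Sprouty and Spred proteins act higher up, between the receptor and Raf. In skin, fibroblast and epidermal growth factor receptors signal through this pathway in the hair follicle, the epidermis and the dermis.

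Depth ranged from 6454563 to 7264151 reads on listed genes in the VC libraries and from 8507783 to 11190113 reads in the AP libraries. The 13 mitochondrially encoded genes took 54.3%, 44.9%, 42.1% and 52.3% of these reads across VC.1 to VC.4, and 11.1%, 7.85%, 5.32% and 10.3% across AP.1 to AP.4. Without them, 3080758 to 3762217 reads were left per VC library and 7561598 to 10594787 per AP library, so the VC values of weakly expressed genes rest on fewer reads. Values are normalized counts, that is reads per gene divided by 1 size factor per library, and fold changes are AP over VC on the log2(normalized count + 1) scale, on which the added 1 pulls the values of genes with low counts together. Each group held 4 separate mice, so the p-values measure the spread between mice. In whole dermis a lower number of cells of 1 type cannot be told apart from less RNA per cell.

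Among the 10 genes, Dusp1 alone passed the test across all genes, and it was higher in the AP group (limma, Benjamini-Hochberg adjusted p under 0.05). Of the 15964 genes tested, 1011 (6.33%) were higher and 639 (4%) were lower by the same rule, so 1 of 10 higher is near what the whole table gives. None of the 10 was lower with limma, also at an unadjusted p under 0.05, and none was lower with edgeR, DESeq2 or limma-voom on the recovered reads. At an unadjusted p under 0.05 in limma, 5 of the 10 were higher, where 17% of all genes tested were higher and 13.3% were lower by that rule. DESeq2 called 2 of the 10 higher after adjustment, Dusp1 and Dusp5, and 10.5% of all genes. The estimated fold change was above 0 in 9 of the 10 and in 53.5% of all genes tested. The median of the 10 was 0.55 on the log2 scale, beside a median of 0.06 over all genes tested. In Dusp1, Dusp5 and Spry2 every AP library was above every VC library, a pattern that 10.3% of all genes tested showed in this direction and 8.91% in the opposite direction. The number of genes called in the whole table depended on single libraries: without VC.1 it was 585 higher and 261 lower, without AP.2 398 and 155, without AP.3 209 and 94, and without AP.4 254 and 139. Scaling by total counts, which includes the mitochondrial reads, moved the median of all genes to 0.90 and the calls to 8681 higher and 65 lower, that is 99.3% higher in place of 61.3%. On that scale 9 of the 10 genes, and 53.3% of the 16300 tested, were called higher and Dusp10 was not, but relative to the shifted median the log2 differences were 2.09 for Dusp1, 0.15 for Spred1 and -0.16 for Dusp10. With limma-voom 715 genes were higher and 723 lower, which is 49.7% higher.

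**Figure D1:**
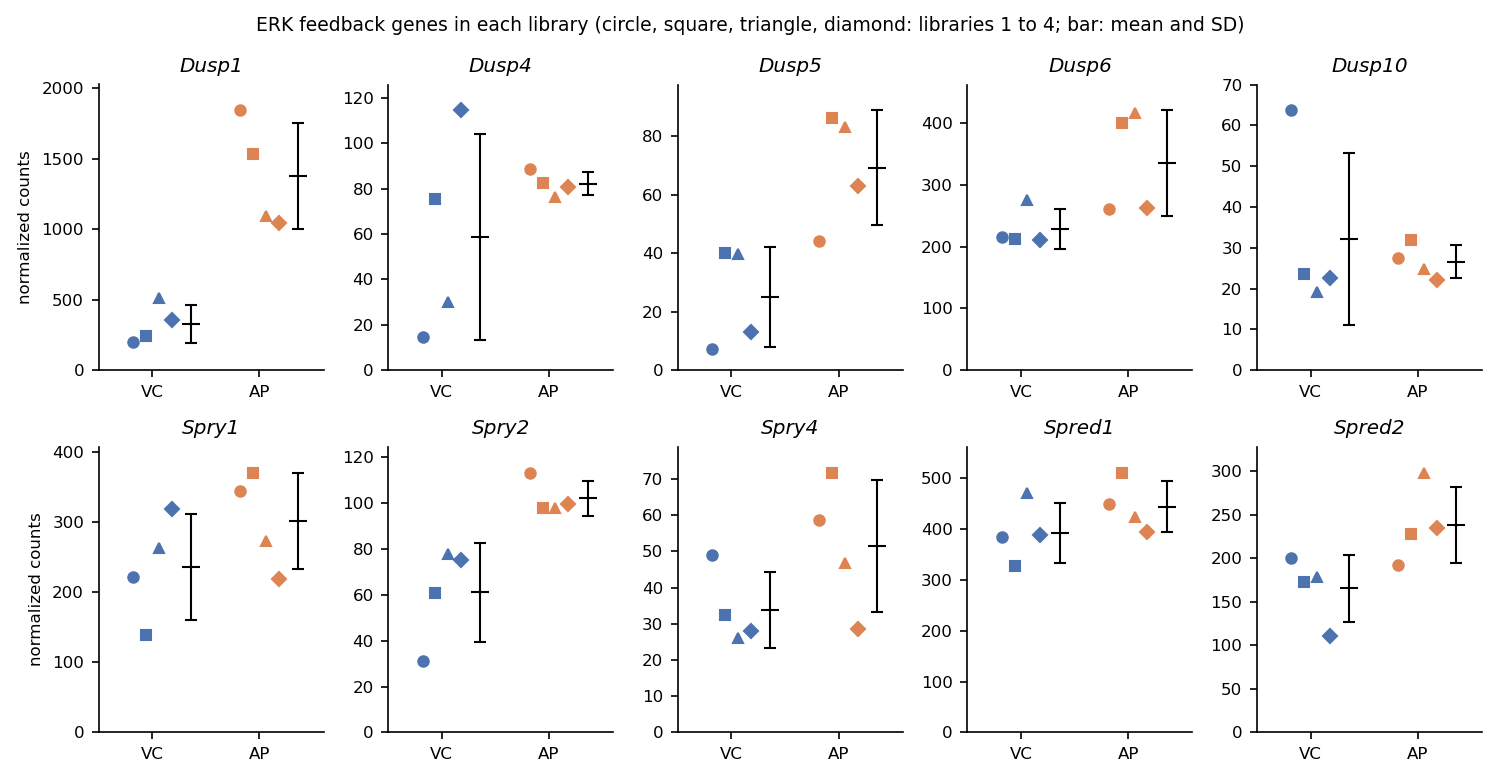
Normalized counts of the 10 genes in each library, with VC in blue and AP in orange; symbols mark libraries 1 to 4 of a group, and the black bars are the mean and SD of 4 libraries. The 4 AP values of Dusp1, 1046 to 1841, all lie above the highest VC value of 511, and the AP and VC values also do not overlap for Dusp5 and Spry2.

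Dusp1 encodes a nuclear phosphatase of p38, JNK and ERK that is itself an immediate early gene (ENSMUSG00000024190, mm10 chr17:26505590-26562128, minus strand). It was found at 200.1, 245, 511 and 353 normalized counts across VC.1 to VC.4, and at 1841, 1529.7, 1095 and 1046 across AP.1 to AP.4. The lowest AP library was thus above the highest VC library, VC.3, and within the AP group the values formed a higher pair, AP.1 and AP.2, and a lower pair, AP.3 and AP.4. Vehicle-treated mice averaged 327 ± 138 (SD, n = 4) and alpinetin-treated mice 1378 ± 378 (SD, n = 4), a ratio of 4.21. The log2 fold change was 2.12 with a standard error of 0.29 and a 95% interval from 1.499 to 2.75 (limma, adjusted p = 0.00435), and all 4 AP libraries showed the direction. An exact two-sided permutation test on the log2 values gave p = 0.0286, which is the smallest that 4 libraries against 4 allow. Of the 15964 genes tested, 402 had a larger fold change. Leaving out any 1 library kept the adjusted p of Dusp1 between 0.00377 and 0.0149 in limma and its log2 fold change between 1.92 and 2.37. Between 110 and 374 reads stood behind the VC values and between 1462 and 2837 behind the AP values, so counting error was small beside the spread between mice. GENCODE M21 also lists long Dusp1 transcripts that begin far upstream, which is why the annotated gene spans 56539 bases.

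Dusp1 was also set against the other genes of the group within the same library, where the size factors all but cancel. The log2 ratio of Dusp1 to Spred1 averaged -0.34 ± 0.45 (SD, n = 4) with vehicle as against 1.596 ± 0.31 (SD, n = 4) with alpinetin. Of the 9 ratios that involve Dusp1, 7 had AP and VC libraries that did not overlap, the exceptions being those to Dusp4 and Dusp5. Of the ratios of Dusp1 to each of the other 15963 genes tested, 74.9% were apart in this direction, so the 7 of 9 restate the difference in Dusp1 itself. Among the 36 ratios between the other 9 genes, none was free of overlap. Each of the 7 ratios had an exact permutation p of 0.0286, the smallest that 4 libraries against 4 allow. With 7 of 45 ratios at this limit the adjusted p was 0.184, and so few ratios could not have passed at this group size. Dusp1 made up 38.2%, 38.3%, 56.0% and 46.7% of the summed length-adjusted level of the 5 Dusp genes across VC.1 to VC.4, and 79.6%, 69.4%, 62.0% and 68.4% across AP.1 to AP.4. The share of Dusp6 in the same sum ranged from 29.4% to 43.3% in the VC libraries and from 11.9% to 24.9% in the AP libraries.

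Dusp5 encodes a nuclear phosphatase that acts on ERK (ENSMUSG00000034765, mm10 chr19:53529109-53542431, plus strand). Its values were 7.28, 39.9, 39.6 and 13.1 normalized counts across VC.1 to VC.4, and 44.2, 86.3, 83.2 and 62.9 across AP.1 to AP.4. VC.1 and VC.4 were low, and AP.1 was only just above VC.2 and VC.3. The log2 fold change was 1.69 with a standard error of 0.53 (95% interval from 0.53 to 2.85), and it did not pass the adjustment in limma (adjusted p = 0.0610). It passed the threshold in 4 of 20 alternatives: DESeq2 (log2 fold change 1.45, adjusted p = 0.0241), scaling by total counts (0.00507), and limma without VC.2 (0.0444) or without VC.3 (0.0458). Over all of them the adjusted p in limma or the named tool ran from 0.00507 to 0.164. The VC values rest on 4, 27, 29 and 7 reads. The 95% Poisson interval, which covers counting error only, ran from 26.3 to 58.1 normalized counts in VC.2 and from 33.8 to 56.8 in AP.1, so these 2 libraries were not told apart at this depth. An annotated antisense gene shares 547 bases (22.1%) with the Dusp5 exons, and since strand use in the counting is not stated, reads from it cannot be told apart from those of Dusp5.

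Dusp4, whose product is a nuclear phosphatase of ERK and JNK (ENSMUSG00000031530, mm10 chr8:34807297-34819894, plus strand), was at 14.6, 75.4, 30.0 and 114 normalized counts across VC.1 to VC.4. In AP.1 to AP.4 it was at 88.5, 82.5, 76.2 and 80.8. The AP libraries were close to each other, with a coefficient of variation of 6.18%, whereas the VC libraries differed 7.86-fold between the lowest and the highest and enclosed the AP range. AP over VC, this gave a log2 fold change of 0.87 with a standard error of 0.53 (limma, adjusted p = 0.288). It was 0.48 with edgeR and 0.49 with DESeq2, and in limma 0.35 without VC.1 and 1.32 without VC.4. Fewer than 10 reads, 8 in number, stood behind the value in VC.1.

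Dusp6 encodes the cytoplasmic ERK phosphatase that is widely used as a readout of ERK activity (ENSMUSG00000019960, mm10 chr10:99263231-99267489, plus strand). It was at 215, 213, 276 and 210.0 normalized counts across VC.1 to VC.4 and at 261, 401, 417 and 262 across AP.1 to AP.4. AP.2 and AP.3 were above all VC libraries, while AP.1 and AP.4 lay below VC.3, so the groups overlapped. Its log2 fold change was 0.53 with a standard error of 0.21 (95% interval from 0.07 to 0.98; limma, adjusted p = 0.114). Of the 20 alternatives, scaling by total counts alone put Dusp6 past the threshold.

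Dusp10, a phosphatase of p38 and JNK rather than of ERK (ENSMUSG00000039384, mm10 chr1:184013302-184075636, plus strand), was at 63.7, 23.6, 19.1 and 22.5 normalized counts across VC.1 to VC.4 and at 27.6, 31.8, 24.9 and 22.2 across AP.1 to AP.4. Apart from VC.1, which was the highest of the 8, the libraries lay between 19.1 and 31.8. Dusp10 had a log2 fold change of -0.11 with a 95% interval from -1.05 to 0.84 (limma, adjusted p = 0.892), and without VC.1 it was 0.27. These values rest on 12 to 59 reads per library, and the interval is wide enough to hold a change in either direction.

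Sprouty proteins bind adaptors and inhibitors below the receptor and limit the activation of Ras. Spry2 (ENSMUSG00000022114, mm10 chr14:105891947-105896819, minus strand) was at 30.9, 60.6, 77.8 and 75.0 normalized counts across VC.1 to VC.4 and at 113, 97.6, 97.7 and 99.4 across AP.1 to AP.4. The AP libraries lay close together, each above the highest VC library, with VC.1 the lowest of all. The log2 fold change was 0.81 with a standard error of 0.31 and did not pass the adjustment (limma, adjusted p = 0.108; exact permutation p = 0.0286), and without VC.1 it was 0.52 with an adjusted p of 0.163. Spry1 (ENSMUSG00000037211, mm10 chr3:37639947-37644598, plus strand) was at 222, 139, 264 and 319 across VC.1 to VC.4 and at 345, 369.9, 273 and 219 across AP.1 to AP.4. AP.1 and AP.2 exceeded all VC libraries and AP.4 was below VC.1, so the groups overlapped, with a log2 fold change of 0.39 (limma, adjusted p = 0.347) that was 0.15 without VC.2. An annotated gene on the opposite strand, not analysed here, shares 710 bases (24.4%) with the Spry1 exons. Spry4 (ENSMUSG00000024427, mm10 chr18:38586247-38601415, minus strand) was at 49.1, 32.5, 25.9 and 28.1 across VC.1 to VC.4 and at 58.7, 71.7, 46.8 and 28.6 across AP.1 to AP.4. Here AP.1 and AP.2 were again the highest and AP.4 lay at the VC level, and the log2 fold change was 0.56 with a standard error of 0.37 (limma, adjusted p = 0.339), on 15 to 27 reads in the VC libraries.

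Spred proteins hold Ras signaling down at the membrane by recruiting neurofibromin, a Ras inactivator. Spred1 (ENSMUSG00000027351, mm10 chr2:117121374-117182279, plus strand) was at 384, 327, 471 and 388 normalized counts across VC.1 to VC.4 and at 449, 511, 424 and 395 across AP.1 to AP.4. The groups overlapped almost fully, with AP.2 alone above the highest VC library. Its log2 fold change was 0.19 with a standard error of 0.16 and a 95% interval from -0.17 to 0.54 (limma, adjusted p = 0.468), and it was 0.10 without VC.2, 0.12 without AP.2 and -0.02 once the trend on exonic length was removed. Spred2 (ENSMUSG00000045671, mm10 chr11:19924375-20024026, plus strand) was at 200.1, 173, 179 and 111 across VC.1 to VC.4 and at 193, 228, 298 and 235 across AP.1 to AP.4. In 3 of 4 AP libraries it was above all VC libraries, AP.1 being the exception, and VC.4 was the lowest. The log2 fold change was 0.54 with a standard error of 0.23 (95% interval from 0.04 to 1.03; limma, adjusted p = 0.134), and it was 0.36 without VC.4.

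**Figure D2:**
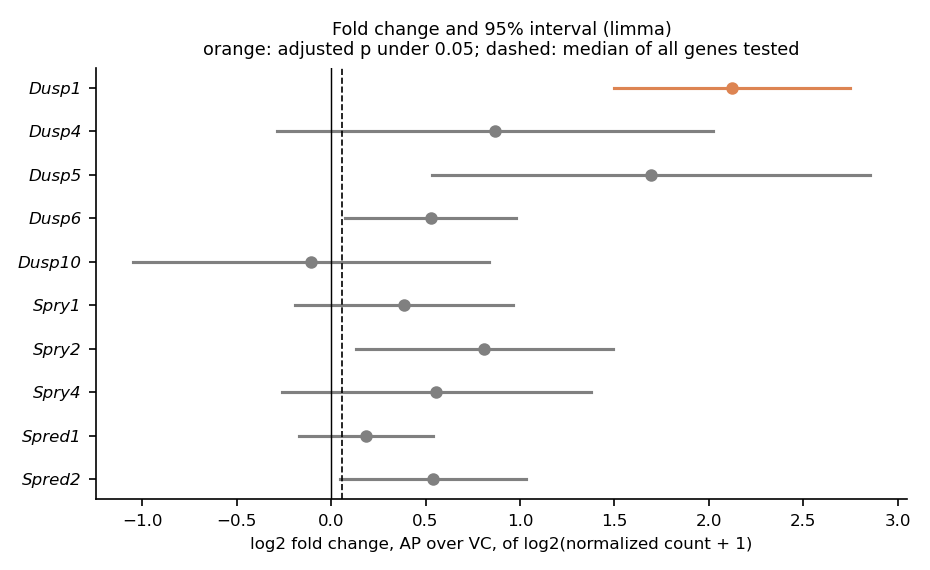
Log2 fold change of each of the 10 genes, AP over VC, with its 95% interval from limma; orange marks an adjusted p under 0.05 and the dashed line is the median of all genes tested, 0.06. Dusp1 stands at 2.12 with an interval from 1.499 to 2.75, and the other 9 did not pass the adjustment. Dusp10, at -0.11, is the 1 estimate below 0, and it lies above 0 when scaled by total counts.

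Levels of different genes were compared per kilobase of exon, with the exons of all annotated transcripts of a gene merged. For Dusp1 this length, 3311 bases, includes the exons of its long transcripts, so its place in the order can depend on this choice. In the VC group Dusp1 was the most abundant at 98.8 ± 41.7 normalized counts per kilobase (SD, n = 4), followed by Spry1 at 81.1 ± 26.1 and Dusp6 at 72.9 ± 10.1. Dusp1 exceeded Spry1 in 2 of 4 VC libraries and Spry1 exceeded Dusp6 in 3 of 4, so these neighbors were not separated beyond their spread, whereas Dusp6 exceeded Spred1 (57.8 ± 8.77) in all 4. Spred2, Spry2 and Dusp4 came next at 35.9, 29.3 and 21.4, and Dusp10, Dusp5 and Spry4 were lowest at 10.6, 10.1 and 7.13. In the AP group Dusp1 was at 416 ± 114 (SD, n = 4) and exceeded the next gene, Dusp6 at 107 ± 27.1, in all 4 libraries. Dusp6 and Spry1 (104 ± 23.7) did not separate, and Dusp5, at 28.0 ± 7.92, was level with Dusp4 at 29.9 ± 1.85. By this measure 80.7% of the genes tested were below Dusp1 with vehicle and 96.0% with alpinetin.

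**Figure D3:**
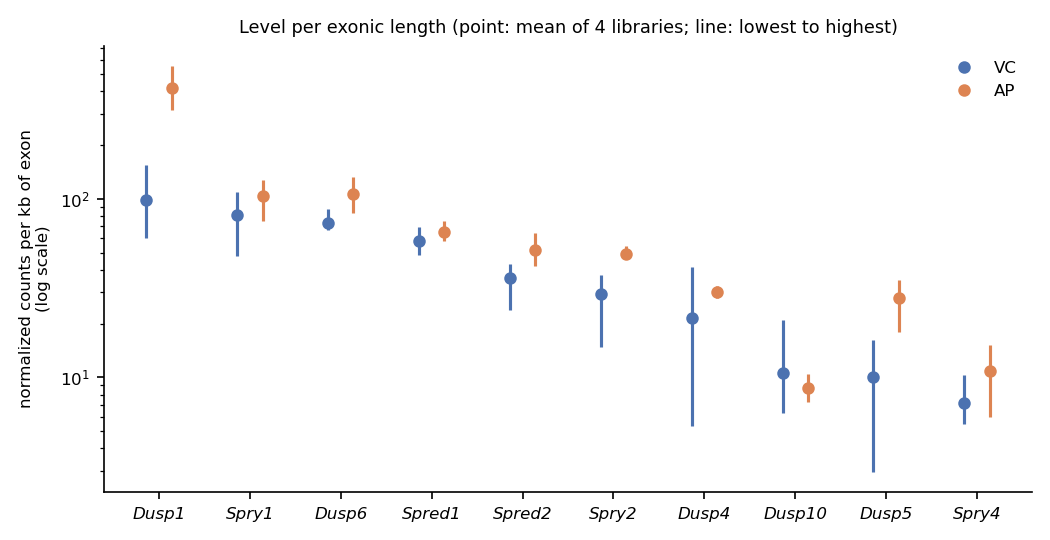
Level of the 10 genes in normalized counts per kilobase of exon on a log scale, ordered by the VC mean; points are means of 4 libraries and lines run from the lowest to the highest library. Dusp1 is at 98.8 in VC and 416 in AP, and the ranges of the 2 groups are apart for Dusp1, Spry2 and Dusp5.

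Libraries that were low for 1 gene were not low for all. VC.1 held the lowest value of the 8 libraries for Dusp1, Dusp4, Dusp5 and Spry2, and the highest VC value for Dusp10, Spry4 and Spred2. In the AP group, AP.2 was the highest library for Dusp5, Dusp10, Spry1, Spry4 and Spred1, AP.1 for Dusp1, Dusp4 and Spry2, and AP.3 for Dusp6 and Spred2. AP.4 was the highest AP library for none of the 10 and the lowest AP library for Dusp1, Dusp10, Spry1, Spry4 and Spred1.

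Immediate early genes are transcribed within minutes of a stimulus without new protein synthesis, and Dusp1 is usually counted among them. Of the 12 on the list, which did not include Dusp1, 11 were higher in the AP group and none was lower in limma, where none was lower at an unadjusted p under 0.05 or with edgeR, DESeq2 or limma-voom either. The median log2 fold change of the list was 1.38 beside 0.06 over all genes. Fos, a subunit of the AP-1 transcription factor, was at 287, 269, 468 and 317 normalized counts across VC.1 to VC.4 and at 2384, 1615, 2089.6 and 1728 across AP.1 to AP.4. As for Dusp1, VC.3 was the highest VC library and AP.1 the highest AP library, and the groups were far apart (log2 fold change 2.56, standard error 0.20; limma, adjusted p = 0.000634). Fosb and Junb, further AP-1 subunits, had log2 fold changes of 3.29 and 1.83, and Egr1, a zinc finger transcription factor, of 1.86. The highest AP library was AP.3 for Fosb, Junb and Egr1, so the genes of the list did not all share the order of Dusp1 within the AP group. Egr3 did not pass the test at 0.41 (limma, adjusted p = 0.324). Of 12 ETS factors and late ERK targets none was called in limma, with 3 higher and 1 lower at an unadjusted p under 0.05, none with edgeR or limma-voom, and 1 in each direction with DESeq2. Their median was 0.57, and 10 of the 12 were above 0, as were 53.5% of all genes tested. The smallest adjusted p values in limma belonged to the receptor Epha4 (1.04, adjusted p = 0.0656) and the cyclin Ccnd1 (-0.43, adjusted p = 0.0722). Whether the response of 1 list differed from that of the other was not tested.

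Related phosphatases were counted next. Of the 5 other MAP kinase phosphatases (Dusp2, Dusp7, Dusp8, Dusp9 and Dusp16), Dusp7 alone was higher and none was lower in limma, at an unadjusted p under 0.05, or with edgeR, DESeq2 or limma-voom, with a list median of 1.05. Dusp7, a cytoplasmic phosphatase of ERK and a close relative of Dusp6, was at 355, 423, 537 and 315 normalized counts across VC.1 to VC.4 and at 526, 788, 1047 and 1069 across AP.1 to AP.4. AP.1 fell just below VC.3 and the other 3 AP libraries were above all VC libraries (log2 fold change 1.05, standard error 0.24; limma, adjusted p = 0.0258). None of the 11 atypical dual-specificity phosphatases was called in limma, edgeR or limma-voom, 1 was lower with DESeq2, and their median was 0.07. At an unadjusted p under 0.05 in limma, 2 of them were higher and 1 was lower. Dusp19 had a log2 fold change of -1.16 (adjusted p = 0.0647) and Dusp15, which had no read in VC.1, of 1.93 (adjusted p = 0.114). Spred3 was the 1 other Sprouty or Spred gene tested and was not called (0.85; limma, adjusted p = 0.384), and Spry3 was not analysed here.

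Other inhibitors of receptor and Ras signaling included 10 genes, of which 4 were higher and 1 was lower in the AP group, with a median of 0.56. Lrig1, a membrane protein that lowers the level of the epidermal growth factor receptor, was at 273, 464, 391 and 362 normalized counts across VC.1 to VC.4 and at 769.5, 762, 975 and 714 across AP.1 to AP.4. Every AP library was above every VC library (log2 fold change 1.13, standard error 0.18; limma, adjusted p = 0.00896). Also higher were Cbl, a ubiquitin ligase for activated receptors (0.995), Cic, a repressor of ERK target genes (0.54), and Il17rd, also called Sef, which restrains fibroblast growth factor signaling (1.57). Pebp1, the Raf kinase inhibitor protein, was lower at -0.54 (limma, adjusted p = 0.0450). In this list edgeR called 4 higher and none lower, DESeq2 6 and 1, and limma-voom 3 and 1. Of the 8 receptor adaptors none was called in limma or limma-voom, while 3 were higher at an unadjusted p under 0.05, 1 with edgeR and 2 with DESeq2. Gab1 had a log2 fold change of 0.65 (limma, adjusted p = 0.0519) and Sos2 of 0.58 (adjusted p = 0.0730).

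Rps6ka3, a kinase that ERK activates, was higher in the AP group (log2 fold change 0.84; limma, adjusted p = 0.0175). Dusp1 and Dusp10 act on p38 and JNK, and the list of 12 kinases of these branches also holds kinases upstream of them. Of the 12, the upstream kinases Map3k1 (1.33, limma, adjusted p = 0.0265) and Map2k7 (-0.71, limma, adjusted p = 0.0289) were higher and lower in turn. The median of the list was 0.21. The calls are 1 of 12 in each direction, near the 6.33% and 4% of all genes tested.

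Marker transcripts of several cell types also differed between the groups. Of 14 suprabasal keratinocyte markers, 12 were higher in the AP group with a median log2 fold change of 2.96, and their summed level was 7831, 15401, 10589 and 7091 normalized counts across VC.1 to VC.4 and 47931, 45867, 133296 and 184633 across AP.1 to AP.4. Krt10 was the most abundant of them and none was at 0 in any library, although the epidermis between the follicles had been taken off. Dusp1 was highest in AP.1 and AP.2, the AP libraries in which this sum was lowest, and AP.3 and AP.4, where the sum was highest, had the lower Dusp1 values. Between the groups both were apart in all libraries. Fibroblast markers summed to 123971, 84217, 86500.1 and 229197 across VC.1 to VC.4, and to 259851, 194605, 139893 and 100431 across AP.1 to AP.4, the order of Dusp1 within the AP group, while the groups overlapped. The part of keratinocytes and of fibroblasts in the result was not tested. The share of mitochondrial reads and the depth also separated the groups completely, as given above, and their part in the result was not tested. Of 10 basal keratinocyte markers, of which Krt14 was the most abundant, 5 were higher (median 1.07), with sums of 30324, 85248, 54535 and 25928 across VC.1 to VC.4 and of 59163, 58139, 108377 and 151724 across AP.1 to AP.4. Endothelial markers summed to 1666, 1819, 2870.2 and 2919 across VC.1 to VC.4 and to 4268, 9073, 3425 and 3980.3 across AP.1 to AP.4, with no overlap. Vwf was the most abundant of them over all 8 libraries, and Pecam1 in the AP group. Of the 10, 2 were higher in limma, edgeR and limma-voom and 6 with DESeq2, and 8 were higher at an unadjusted p under 0.05 (median 1.31). AP.2, which had the highest endothelial sum, also had the highest values of Dusp5, Spry1, Spry4 and Spred1, and the part of endothelial cells in these values was not tested. Of 6 melanocyte markers, led by Dct, 4 were lower (median -1.09).

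The remaining cell types gave few calls. Of the 10 markers each of dermal fibroblasts (led by Col1a1 over all 8 libraries), skeletal muscle (Acta1), adipocytes (Cfd) and leukocytes (Cd74), none was called in limma, edgeR or limma-voom, with medians of 0.28, -1.65, 0.26 and -0.30. In the VC group Col3a1 was the most abundant fibroblast marker. At an unadjusted p under 0.05 in limma, 2 fibroblast markers were higher and 1 was lower, 7 muscle markers were lower, 2 adipocyte markers were higher, and 2 leukocyte markers were higher and 3 lower. By the same rule 17% of all genes tested were higher and 13.3% lower. DESeq2 called 1 fibroblast marker lower, 1 leukocyte marker higher and 2 lower, and no muscle or adipocyte marker. Muscle markers summed to 72901 in AP.1, above every VC library (35674 to 70844), but to 5387 to 11394 in the other 3 AP libraries, and the part of muscle in the result was not tested. Of the 9 hair matrix and shaft markers tested (Krt71 the most abundant over all 8 libraries, Krt35 in the VC group), none was called in limma or limma-voom and 1 was higher with edgeR and with DESeq2, with 3 higher at an unadjusted p under 0.05 and a median of -0.28. Krt31 was listed at 0 in VC.4, and Krt85 was not analysed here. Of 5 red blood cell genes, Hbb-bs, the most abundant over all 8 libraries though not in the VC group, was higher (median of the list 0.94). At an unadjusted p under 0.05, and also with DESeq2 after adjustment, 1 was higher and 1 was lower, and Alas2 was listed at 0 in VC.1.

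**Figure D4:**
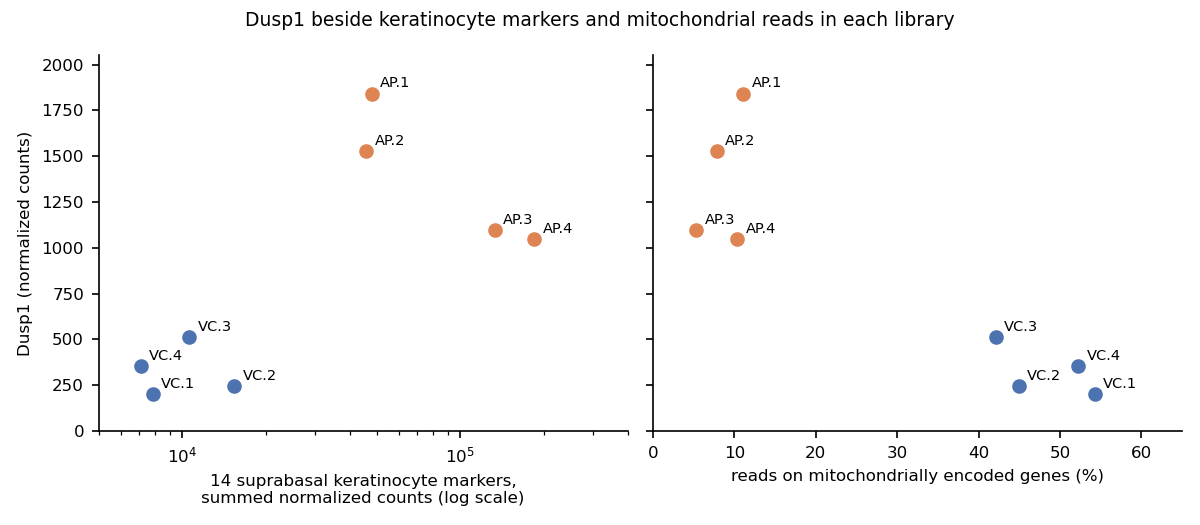
Dusp1 in normalized counts against the summed level of 14 suprabasal keratinocyte markers (left, log scale) and against the percentage of reads on mitochondrially encoded genes (right), 1 point per library. The VC and AP libraries are apart on every axis, with marker sums of 7091 to 15401 in VC and 45867 to 184633 in AP.

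For each gene the 3 genes with the most similar profile were found among 11257 genes with a mean of at least 50 normalized counts. Likeness was the root mean square difference of the mean-centered log2 values over the 8 libraries. It therefore includes the difference between the groups and, for genes on few reads such as Dusp4, Dusp5 and Dusp10, counting error. Whether genes with similar profiles are regulated together was not tested. For Dusp1 these were Zfp36 (0.307), Junos (0.310) and Reln (0.353). Zfp36, an RNA-binding protein gene on the immediate early list, was at 204, 288, 369 and 332 normalized counts across VC.1 to VC.4 and at 1247, 929.6, 954 and 737 across AP.1 to AP.4, a log2 fold change of 1.70 (limma, adjusted p = 0.00360). Dusp5 was most like Gm10366 (0.224), Ccdc120 and Papln, and Dusp4 was most like Bivm (0.267), Cpne2 and Adnp2. Dusp6 was closest to Fbrs (0.0976), Phc3 and Kmt2e, and Dusp10 to Gm48933 (0.180), Pramel12 and Hint2. The Sprouty genes were closest to Itih5 (0.134), Ripor1 and Gbp7 for Spry1, to Ubr2 (0.152), Ero1b and Ext1 for Spry2, and to Hspa12b (0.171), Prkce and Lifr for Spry4. Spred1 was closest to Gpat4 (0.0731), C9orf72 and Cables2, and Spred2 to Cnot6l (0.0827), Ankle2 and Fzd7.

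Promoter sequences (RefSeq, GRCm38.p6, from 250 bases before to 50 after each start) were matched for 8 of the 10 genes, all but Dusp4 and Spry4, and searched on both strands for short motifs. The motifs were the cyclic AMP response element TGACGTCA, its shorter core TGACG, the AP-1 site TGACTCA, the EGR sites GCGGGGGCG and GCGTGGGCG, the ETS site CCGGAAGT, the letters TATAAA and the CArG box bound by serum response factor. TGACGTCA was found in Dusp1 alone of the 8, at bases -143 to -136 from the RefSeq start, and it occurs in 2.73% of the 15321 promoters of tested genes. The CArG box was found in Dusp5 alone of the 8, in a pair at -82 to -73 and -72 to -63, and 1.32% of the promoters hold at least 1. The core TGACG, which lies within TGACGTCA on both strands, was found in Dusp1, Dusp5 and Spred2 and in 28.3% of promoters. No match to the other motifs was found in these 8 windows, and 4.34% of promoters hold TGACTCA, 6.1% an EGR site, 6.81% CCGGAAGT and 8% TATAAA. The stretches below are shown because Dusp1 and Dusp5 had the largest fold changes of the 10 genes, and capitals mark the matches. They end where GENCODE M21 places the first base of the gene's nearest exon. The Dusp1 stretch (chr17:26508520-26508672, minus strand) lies before the start of the main transcript and within an intron of the long one, and the Dusp5 stretch (chr19:53528945-53529108, plus strand) lies before the gene and overlaps an exon of the antisense gene.
Dusp1: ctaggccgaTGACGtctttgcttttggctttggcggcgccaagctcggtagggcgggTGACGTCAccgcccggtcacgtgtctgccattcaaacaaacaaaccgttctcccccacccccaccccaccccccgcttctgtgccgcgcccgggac
Dusp5: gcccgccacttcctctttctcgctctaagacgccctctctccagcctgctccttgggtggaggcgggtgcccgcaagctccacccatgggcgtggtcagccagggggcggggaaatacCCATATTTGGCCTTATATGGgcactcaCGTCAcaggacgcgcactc

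The 3′ untranslated regions were searched for the letters TATTTAT. These letters, in RNA the core of AU-rich elements that mark short-lived messages, were counted on the sense strand in 1 transcript per gene of GENCODE M21. They occurred in 6 of the 10 genes, in 6 of the 12 immediate early genes and in 27.1% of the 14321 tested genes that have such a region, whose median length was 950 bases beside 1112 for the 10. Dusp1 had 3 in 690 bases, Spry1 had 2 in 1047, Spry2 had 2 in 856, Spry4 had 4 in 3559, Spred1 had 3 in 4330 and Spred2 had 1 in 2579. Per kilobase this is 4.35 for Dusp1, 1.91 for Spry1, 2.34 for Spry2, 1.12 for Spry4, 0.693 for Spred1 and 0.388 for Spred2, beside 0.2895 over all these genes, and the regions differ widely in length. Dusp4, Dusp5, Dusp6 and Dusp10 had none, in regions of 1109 to 1189 bases. Dusp1 thus had the most sites per kilobase of the 10, while Dusp5 had none, and whether the sites go with the fold change was not tested. The windows of 25 bases around the sites of Dusp1, Spry1 and Spry2 are shown because these regions are the shortest that hold more than 1, with the 7 matched letters in capitals and each named by the base at which the match begins, counted from 1 at the first base after the stop codon. The Dusp1 windows lie at chr17:26506161-26506185, chr17:26505872-26505896 and chr17:26505676-26505700 (minus strand). Those of Spry1 lie at chr3:37644411-37644435 and chr3:37644443-37644467 (plus strand), and those of Spry2 at chr14:105892094-105892118 and chr14:105892055-105892079 (minus strand), all in GRCm38. The first Spry1 window and the first Spry2 window share their first 17 bases.
Dusp1 at 104: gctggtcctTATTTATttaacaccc
Dusp1 at 393: ttttaccttTATTTATttttgtgta
Dusp1 at 589: atgtttgttTATTTATgatctgaag
Spry1 at 869: tgtaaagaaTATTTATtatgcgaat
Spry1 at 901: attttatgaTATTTATtgcaaaaga
Spry2 at 694: tgtaaagaaTATTTATttgaagttt
Spry2 at 733: aaaaaagaaTATTTATtttaagagg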

How the data were processed

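RNA-seq of 8 libraries (4 VC, 4 AP) was analysed from the deposited table of 18770 genes. According to the methods, the authors enriched polyadenylated RNA, used STAR and mm10 for alignment and featureCounts for gene counts (the submitters' processing notes name HTSeq) and DESeq2 for the comparison of groups. The deposited signal values are read counts divided by 1 size factor per library, the unit that had been assumed for the test. All 150160 of 150160 values were whole multiples of 1 step per library within 0.01 reads, or within a relative 1e-05 for large values, so reads could be recovered. The table also holds the authors' own comparison (mean, log2 fold change, its standard error, test statistic, p-value and adjusted p-value), which was not used. Strand use in the counting is not given in the sources used here.

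limma 3.58.1 in R 4.3.3, with an intensity trend, was fitted to log2(value + 1) of the 15964 genes that reached 3 normalized counts in 4 or more of the 8 libraries, and p-values were adjusted over all of them by the Benjamini-Hochberg method. All 10 members passed this filter. Single values and ratios were compared with exact two-sided permutation tests. edgeR 4.0.16, DESeq2 1.42.0 and limma-voom on the recovered reads, other scalings, pseudocounts and filters, removal of the trend on exonic length, and each library left out were alternatives. The fit was tested on simulated data. For pairs of libraries from 1 group, chi-square divided by its degrees of freedom ran from 15.8 to 78.9, more than sampling noise alone gives. Of 18770 gene identifiers, 18766 were in GENCODE M21, which gave coordinates, exonic lengths and 3′ untranslated regions. Genes named beside the members were, per pathway list, those past an adjusted p of 0.05 (at most 4 with the smallest, or else the 2 smallest), the most abundant marker of each cell type and those at 0, and the 3 most similar profiles; Pebp1 and Egr3, the exceptions in their lists, were added after their values were seen. The members and lists were chosen with earlier results of these data known. The counts of 1 pathway list and 1 of its genes are not reported here.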

Additional observations from a re-analysis of the deposited data

Results flagged for a closer look

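In each of the 20 sets of 4 values (10 genes in 2 groups), the gap between an extreme library and its nearest neighbor was compared with the range of the 4. In 3 of the 20 this ratio passed Dixon's 95% limit, where chance gives about 1 in 20. Dusp10 in VC.1 was at 63.7 normalized counts, on 35 reads, against 19.1 to 23.6 in the other VC libraries, which is 0.898 of the range. Dusp6 in VC.3 was at 276 normalized counts against 210.0 to 215 in the others, which is 0.929 of the range. Spry2 in AP.1 was at 113 normalized counts against 97.6 to 99.4 in the others, which is 0.883 of the range.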

How the results depend on the processing

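Of 200 values of single genes (10 genes under 20 alternatives), 186 kept their direction and their side of the threshold, 11 passed it in addition and 3 changed direction. Dusp1 passed under all 20 alternatives. The changes of direction were Dusp10, at 0.74 under scaling by total counts and 0.27 without VC.1, and Spred1, at -0.0174 with the length trend removed; neither gene passed the threshold in limma as reported. Without VC.3, Dusp10 was at -0.289. With DESeq2, 1677 genes were higher and 1362 lower, and 2 members were higher. Without the intensity trend 376 were higher and 216 lower. Under scaling by total counts 8681 were higher and 65 lower, and 9 members were higher; this scaling counts the mitochondrial reads, whose share differed between the groups. For the other 2 settings the cause was not tested. With each library left out, the counts ran from 209 to 1082 genes higher and from 94 to 817 lower, from 1 to 2 members higher and from 0 to 0 lower; the lowest counts came without AP.3 and the fewer samples also lower the power. No paired analysis was possible because the numbers of the columns are not those of the labels and no column could be tied to 1 mouse. Dusp4, Dusp5, Dusp10, Spry2 and Spry4 rest on the fewest reads, 4 to 61 per VC library.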
